A study of Mus musculus with 2 samples.

Results

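The heat shock and cytosolic chaperone genes of 4T1 cells, a murine mammary carcinoma line, were compared between cells treated with astragalin (AS), a plant flavonoid, and cells treated with the vehicle. The genes were taken by symbol: the HSP70, HSP110, HSP90 and small heat shock protein families, the HSF factors, the J-domain proteins, the TRiC chaperonin, the BAG family, Ahsa1 and Stip1, without 6 genes of endoplasmic reticulum (ER) chaperones and without pseudogenes. This gave 74 of the 14197 genes in the deposited table, and the rule uses no measured value. The AS group was 1 RNA-seq library of wild-type 4T1 cells after 20 μM AS for 24 h, and the vehicle group was 1 library of wild-type 4T1 cells. With 1 library per condition there was no replicate check and no test of the conditions, so every difference below is between these 2 libraries, and intervals cover counting error only. The libraries implied by the table held 44909683 reads for AS and 50820728 for the vehicle, and whole reads were recovered for all 74 genes.

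The labelled line was checked against markers of mammary epithelium. All 8 of these markers were in the table, led by Krt18 at an RPKM (read density over the exons, corrected for library size) of 707 after AS against 902 after vehicle, and Epcam was at 335 and 357. Of 10 markers of other cell types, 4 were in the table, while Cd3e, Pecam1, Cdh5, Dcn and Adipoq were among those that were not. Their summed RPKM was 27.1 after AS against 30.6 after vehicle, most of it from Cd68, at 24.0 and 28.1, while Ptprc, the common leukocyte marker, was at 0.116 and 0.114. By gene, 3 of these 4 were higher with AS, with log2 ratios of 0.40 for Lyz2, 0.30 for Col3a1 and 0.01 for Ptprc, and Cd68 was lower at -0.23. The epithelial markers summed to 1841 RPKM after AS and 2344 after vehicle. Of the 8 markers, 2 were higher in the AS library, Cldn4 with a log2 ratio of 0.42 and Cdh1 with 0.17, and 6 were lower, from Cldn3 at -0.01 to Krt19 at -0.73 (136 against 226 RPKM). All keratins of the list were among the lower genes. Whether such shifts bear on the chaperone genes was not tested, and fewer cells of a type cannot be told apart from less RNA per cell in these bulk libraries.

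Molecular chaperones keep other proteins from clumping and help them fold. HSP70 proteins bind short exposed stretches of a client and are driven by J-domain partners, which start ATP hydrolysis, and by exchange factors such as HSP110, BAG proteins and HspBP1, which release the nucleotide. HSP90 takes over many kinases and steroid receptors from HSP70 through the adaptor encoded by Stip1, and TRiC folds actin and tubulin inside a closed chamber. When unfolded protein builds up in the cytosol, the factor HSF1 binds heat shock elements, inverted repeats of GAA, and raises inducible members such as Hspa1a, Hspa1b, Dnajb1 and Hspb1. In tumour cells many of these genes are expressed at high levels without heat.

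Heat shock elements were searched in the promoter sequences of RefSeq (GRCm38.p6), which cover 250 bases before and 50 bases after each gene start, because these elements are what HSF1 binds. The 3-unit element was searched as GAANNTTCNNGAA and TTCNNGAANNTTC and the 2-unit element, which every 3-unit element contains, as GAANNTTC and TTCNNGAA. The patterns of 2 units read the same on both strands, and those of 3 units are each other's reverse complement. A promoter was listed for 58 of the 74 genes. The 3-unit element was found in 6 of their 76 promoters (7.89%), belonging to Dnajb6, Hspd1, Hspe1 and Hsph1, where 0.603% of all 32851 promoters held it. By gene this was 4 of 58 (6.90%), and some of these promoters overlap: 2 of Dnajb6 hold the same stretch, and so do those of Hspd1 and Hspe1. The 2-unit element was found in 19 of the 76 promoters (25%), where 15.1% of all promoters held it. A match is a run of letters and not a shown binding site. The stretches printed here are those of the mitochondrial chaperonin pair, of the inducible HSP70 pair and of the small heat shock protein Hspb1, with the matched letters in capitals. Hspd1 and Hspe1 are transcribed in opposite directions, and both promoters hold the same stretch, chr1:55088053-55088082, which is shown on the plus strand, that of Hspe1, with 2 overlapping matches that begin 89 and 84 bases before its start. The Hspa1a stretch is chr17:34972223-34972290 on the minus strand, and the Hspa1b stretch, chr17:34959305-34959372 on the minus strand, has the same letters. Both matches begin 104 bases before the gene start. The Hspb1 stretch is chr5:135887772-135887859 on the plus strand, with matches that begin 117 and 97 bases before the start.
Hspe1 and Hspd1: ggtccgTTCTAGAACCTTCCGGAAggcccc
Hspa1a and Hspa1b: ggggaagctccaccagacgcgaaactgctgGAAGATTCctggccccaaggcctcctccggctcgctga
Hspb1: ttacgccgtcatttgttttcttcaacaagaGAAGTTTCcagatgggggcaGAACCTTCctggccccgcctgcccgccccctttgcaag

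The chaperone genes as a group were at close to the same level in both libraries. The log2 ratio of AS to vehicle RPKM, taken after adding 0.1 RPKM to each, went beyond 1 in either direction for 0 of the 74 genes, where 138 of 14197 genes (0.972%) did so in the whole table, 94 upward (0.662%) and 44 downward (0.31%). At a lower threshold of 1.5-fold, again 0 of the 74 genes were past it upward and 0 downward, against 3.56% and 2.01% of all genes. At these background shares few genes of a set of this size would be past either threshold. The log2 ratios ran from -0.58 for Hspa2 to 0.48 for Hspa9. Their median was -0.02, where the median of all genes was 0.07, and 35 genes were higher and 39 lower in the AS library, where 60.9% of all genes were higher. A log2 ratio within 0.25 of 0 was found for 57 of the 74 genes (77.0%) and for 66.2% of all genes. The genes outside that band were 8 higher and 9 lower with AS, where 3166 of all 14197 genes were above it and 1628 below it. TMM scaling lowered every log2 ratio by 0.07, so that ratios between 0 and 0.07 turn negative with it, and 28 of the 74 genes were above the median of all genes. The summed RPKM of the 74 genes was 9811 after AS against 10186 after vehicle, and they took 3.34% and 3.43% of all reads.

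**Figure D1:**
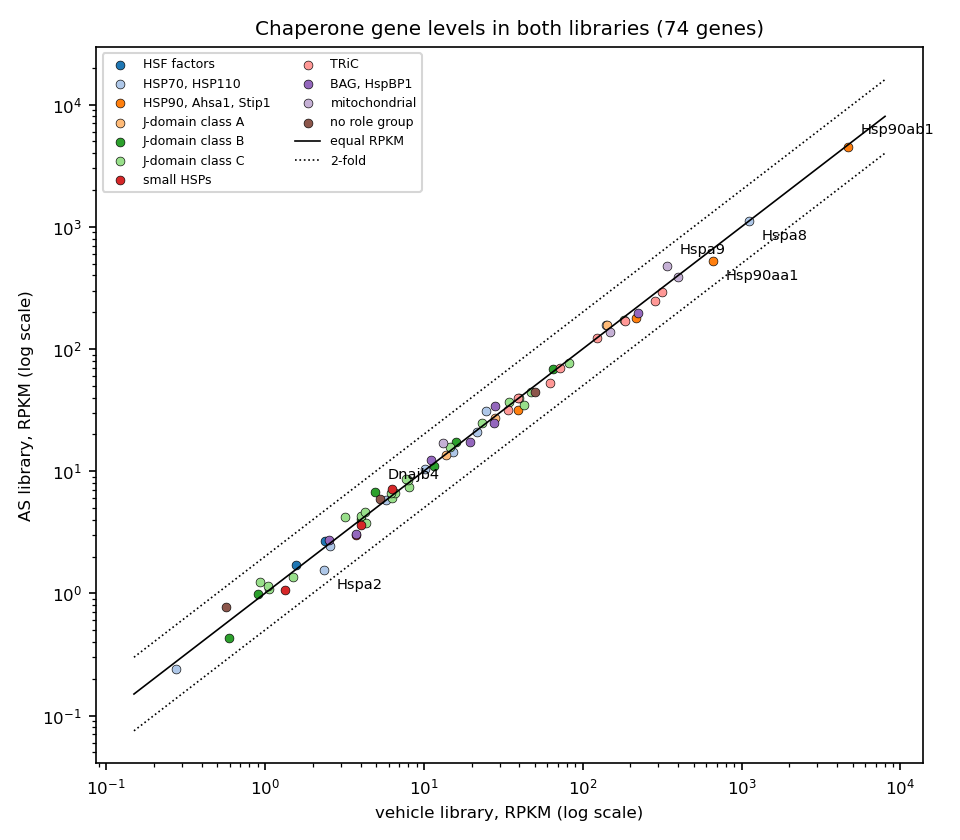
RPKM of the 74 chaperone genes in the vehicle library (horizontal axis) and the AS library (vertical axis), both on log scales, 1 point per gene coloured by role, with the line of equal RPKM and dotted lines at a 2-fold difference. All 74 points lie between the dotted lines, from Hspa12b at the lower end to Hsp90ab1 at 4503 and 4705 RPKM.

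The factors come first in the pathway. Hsf1, the main heat shock factor, was at 1.69 RPKM after AS against 1.57 after vehicle, counted from 539 and 565 reads, giving a log2 ratio of 0.10. The 95% Clopper-Pearson interval of its reads, on the log2 scale and without the added 0.1 RPKM as for all intervals here, ran from -0.06 to 0.28 and included 0. Hsf2, a related factor active in development, had an RPKM of 2.70 and 2.38, giving a log2 ratio of 0.18 with an interval from 0.06 to 0.30. Hsf4 and Hsf5 were not among the genes of the table. HSF1 is controlled mainly on the protein, by release from chaperones and by phosphorylation, so its mRNA is no measure of its activity.

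A list of 26 HSF1 target genes was used as the readout of the pathway. Of these, 16 belong to the chaperone set and 10 do not, all 26 were in the table, and 0 were more than 1.5-fold apart in either direction, against 3.56% of all genes upward and 2.01% downward, so that a count of 0 is near the background for a list of this size. The median was -0.04. Among the 16 chaperone genes, 3 were higher (18.8%) and 13 lower in the AS library, with a median of -0.06. Among the 10 others, 7 were higher (70%) and 3 lower, with a median of 0.07 beside 0.07 for all genes. Of all genes, 60.9% were higher, so the share of the 10 others was near the background. The inducible genes Hspa1a, Hspa1b and Dnajb1 had intervals that included 0 with the deposited scaling, and with TMM, median-of-ratios or upper-quartile scaling those of Hspa1b and Dnajb1 lay below 0. Hspa1b, an inducible HSP70, was at 20.8 RPKM after AS against 21.6 after vehicle, and its near copy Hspa1a had 2.44 and 2.57. Their log2 ratios were -0.06 and -0.07. The 2 genes shared 49.9% and 48.6% of their 100-base stretches of transcript with other genes, namely each other and Hspa1l, so the split of reads between them is uncertain. Dnajb1, the J-domain partner of inducible HSP70, had an RPKM of 11.0 and 11.5, giving a log2 ratio of -0.06 with an interval from -0.16 to 0.03. Bag3, a partner of HSP70 in selective autophagy, had an RPKM of 17.2 and 19.4, giving a log2 ratio of -0.18. Hspb1, the small heat shock protein whose promoter stretch is printed above, had only 139 and 196 reads, with an RPKM of 3.0 and 3.74, giving a log2 ratio of -0.31 and an interval from -0.64 to 0.00, and 42.7% of its 100-base stretches were also found in a pseudogene.

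Some targets lay higher. Ier5, an immediate early gene that acts back on HSF1, was at 15.6 RPKM after AS against 11.1 after vehicle and had the highest log2 ratio of the list, 0.48. Dnajb4, a J-domain partner of HSP70 on chromosome 3 from 152178511 to 152210302 of GRCm38, had an RPKM of 6.80 and 4.91, counted from 2677 and 2188 reads, giving a log2 ratio of 0.46 with an interval from 0.39 to 0.55. Hsph1, the HSP110 exchange factor, had 31.1 and 24.8 RPKM, giving a log2 ratio of 0.32 with an interval from 0.28 to 0.37. Serpinh1, the collagen chaperone HSP47, had 71.5 and 61.8 RPKM, giving a log2 ratio of 0.21. The ubiquitin gene Ubb had a log2 ratio of 0.03, which turns negative with TMM scaling. The targets therefore ran in both directions, from Hsp90aa1 at -0.34 to Ier5.

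**Figure D2:**
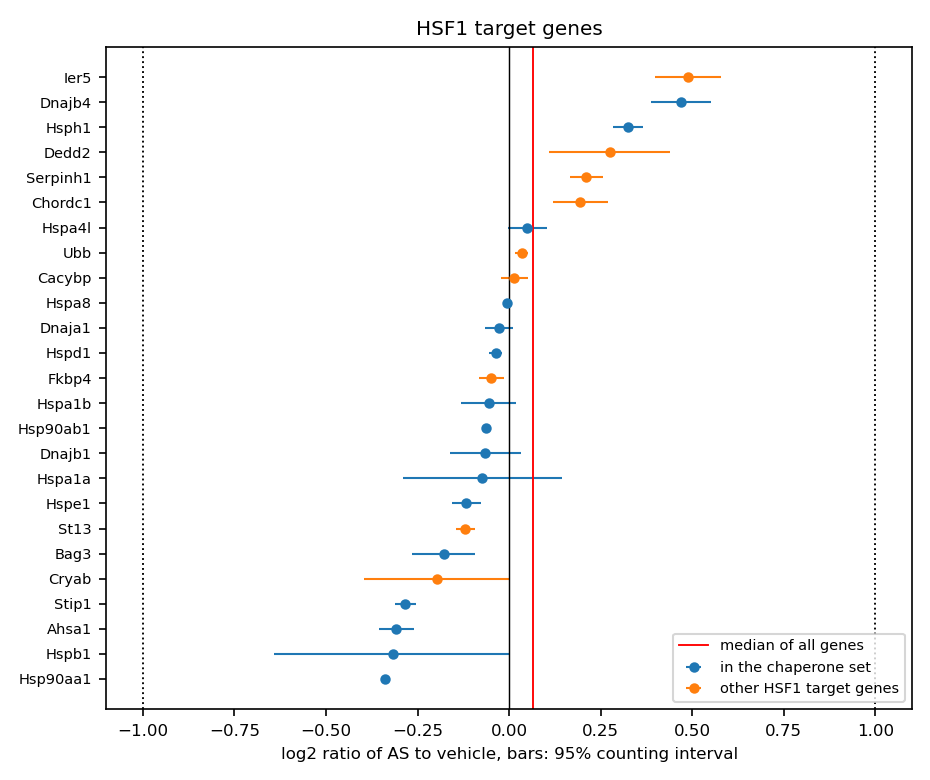
Log2 ratio of AS to vehicle of the HSF1 target genes, 1 of the 26 not shown, without an added amount, with bars for the 95% Clopper-Pearson interval of the reads (counting error only), blue for genes of the chaperone set and orange for others; the red line is the median of all genes and dotted lines mark -1 and 1. No gene shown reaches a dotted line, and with the deposited scaling plotted here the intervals of Hspa1a, Hspa1b and Dnajb1 include 0, which those of Hspa1b and Dnajb1 do not with the alternative scalings.

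Genes with and without the promoter elements overlapped in their log2 ratios. Hsp90aa1, Hsp90ab1, Hspa8 and Hsf1 were among the genes without a listed promoter and are not part of this comparison. Dnajb1 had a listed promoter but neither element in it. The 4 genes with a 3-unit element had log2 ratios from -0.12 for Hspe1 to 0.32 for Hsph1, with a median of 0.02, and the other 54 genes with a listed promoter had a median of -0.04. The 17 genes with a 2-unit element ran from -0.31 for Hspb1 to 0.46 for Dnajb4, with a median of -0.04, and the 41 without it had a median of -0.01.

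The HSP90 genes, Ahsa1 and Stip1 were lower in the AS library, by small amounts. Hsp90ab1, the constitutive cytosolic HSP90 on chromosome 17 from 45567775 to 45573271, was the most abundant chaperone gene and number 5 of all genes by RPKM in both libraries. It was at 4503 RPKM after AS against 4705 after vehicle, counted from 606473 and 717155 reads, or 1.35% and 1.41% of all reads, giving a log2 ratio of -0.06. Hsp90aa1, the more inducible HSP90 on chromosome 12 from 110690605 to 110702728, had an RPKM of 522 and 659, counted from 92100 and 131743 reads. Its log2 ratio of -0.34 had an interval from -0.35 to -0.33, and 47.5% of its 100-base stretches were also found in other genes. Ahsa1, the activator of the HSP90 ATPase, had an RPKM of 31.6 and 39.1, giving a log2 ratio of -0.31 with an interval from -0.36 to -0.26. Stip1, the adaptor between HSP70 and HSP90, had 179 and 218 RPKM, giving a log2 ratio of -0.28 with an interval from -0.31 to -0.25. Of the 4 genes of this group, 0 were past 1.5-fold, against 3.56% of all genes upward and 2.01% downward, so this count is near the background. All 4 were lower with AS, with a median of -0.30, where 60.9% of all genes were higher. A list of 15 other HSP90 co-chaperones did not show this median. It had a median of 0.03, with 8 genes higher and 7 lower, from Cdc37, the kinase-specific co-chaperone, at 112 and 128 RPKM with a log2 ratio of -0.20, to Cdc37l1 at 0.28. That median turned to -0.04 with TMM normalization.

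The HSP70 genes were dominated by Hspa8. This gene encodes the constitutive HSC70 and lies on chromosome 9 from 40800984 to 40810087. It was at 1108 RPKM after AS against 1113 after vehicle, counted from 213992 and 243314 reads, giving a log2 ratio of -0.01. Of its 100-base stretches, 31.6% were also found in other genes. Hspa4, an HSP110-type exchange factor, had an RPKM of 157 and 141, giving a log2 ratio of 0.15. Hspa2, a testis-rich HSP70 on chromosome 12 from 76404176 to 76406938, had the lowest log2 ratio of the whole chaperone set, at 1.55 and 2.37 RPKM counted from 184 and 318 reads. Its log2 ratio of -0.58 became -0.61 without the added 0.1 RPKM, with an interval from -0.88 to -0.34, so Hspa2 lies at the threshold of 1.5-fold and its side of it depends on the added amount and on the scaling. The low-level Hspa12b had only 40 and 52 reads and a log2 ratio of -0.14 with an interval from -0.83 to 0.42, and Hspa13 and Hspa14 were at 0.00 and -0.09. The 10 genes of this group had a median of -0.03, with 4 higher and 6 lower in the AS library.

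The mitochondrial chaperones in the set differed among themselves. Hspa9, the mitochondrial HSP70 (mortalin), is on chromosome 18 from 34937414 to 34954357. It was at 477 RPKM after AS against 341 after vehicle, counted from 92301 and 74762 reads. The log2 ratio of 0.48 was the highest of the 74 genes, with an interval from 0.47 to 0.50, and the gene was number 86 by RPKM in the AS library and number 131 in the vehicle library. Dnaja3, its J-domain partner (TID1), had 16.9 and 13.1 RPKM, giving a log2 ratio of 0.37 with an interval from 0.29 to 0.45. The chaperonin pair with the shared promoter stretch printed above lay on the other side of 0. Hspd1 (HSP60), which shared 26.9% of its 100-base stretches with other genes, had an RPKM of 390 and 400, giving a log2 ratio of -0.04, and Hspe1 (HSP10) had 136 and 148, giving a log2 ratio of -0.12. Within the AS library Hspa9 had 1.22 times the RPKM of Hspd1, and within the vehicle library 0.853 times, a ratio that does not depend on the scaling between libraries. A list of 12 other mitochondrial chaperones and proteases had a median of 0.06, with 7 higher and 5 lower. Of these 12 genes, 0 were past 1.5-fold, near the background of 3.56% of all genes upward and 2.01% downward. They ran from Lonp1, the matrix protease, at -0.16 to Grpel2, an exchange factor of mitochondrial HSP70, at 0.30. The more abundant exchange factor Grpel1 had 47.8 and 52.4 RPKM, giving a log2 ratio of -0.13. The median of that list turned to -0.01 with TMM normalization.

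**Figure D3:**
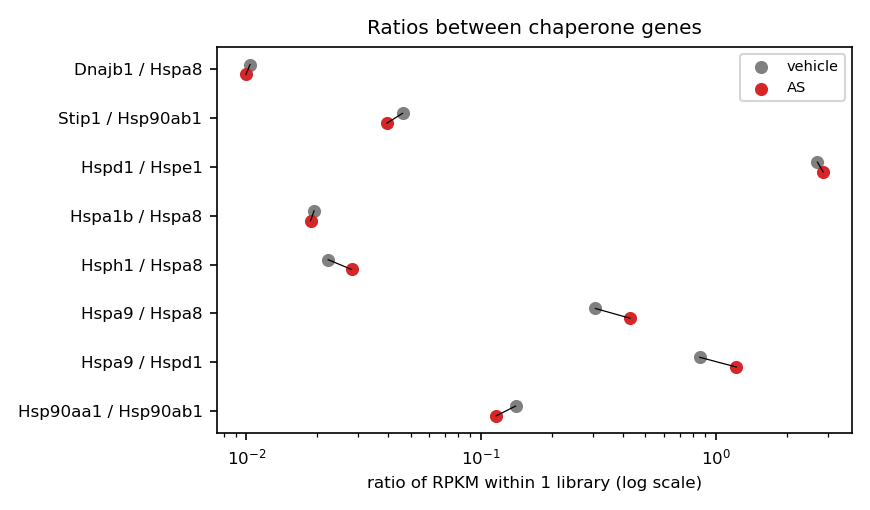
RPKM ratio between pairs of chaperone genes within each library (log scale), grey for vehicle and red for AS, 1 library each. Hspa9 is at 0.853 times Hspd1 with vehicle and 1.22 times with AS, while Hspa1b and Dnajb1 are near 0.019 and 0.010 times Hspa8 in both libraries.

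TRiC, the ring of 8 different subunits that folds actin and tubulin, was slightly lower. Of its 8 genes in the table, 6 were lower and 2 higher in the AS library, with a median of -0.11, all within 0.25 of 0, and 0 of the 8 were above the median of all genes. The lowest were Cct7, with 52.9 RPKM with AS and 62.0 with the vehicle and a log2 ratio of -0.23, and Cct5, with 245 and 285 RPKM and -0.22. Cct2, the subunit with the highest RPKM, had 292 and 317, giving a log2 ratio of -0.12, and Cct4 had 39.9 and 39.4, giving a log2 ratio of 0.02 that turned negative with each alternative scaling. Tcp1, Cct3, Cct8 and Cct6a had log2 ratios of -0.13, -0.10, -0.04 and 0.00. RPKM here divides by all exon bases of a gene, 2557 for Cct2 and 6778 for Cct7, so the levels of subunits within a library are only roughly comparable. The genes of prefoldin, which passes nascent chains to TRiC, and of other chaperonin helpers, among them the phosducin-like Pdcl, had a median of -0.07 over 9 genes, with Pdcl highest at 0.16. Of the 9, Pfdn6 alone was past 1.5-fold, and it was lower, where 2.01% of all genes were past it downward and 3.56% upward. Pfdn6 had 33.8 RPKM with AS and 51.5 with the vehicle, counted from 1811 and 3120 reads. Its log2 ratio was -0.60 with an interval from -0.69 to -0.52.

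Of the J-domain proteins, the 3 class A genes outside mitochondria had log2 ratios from -0.03 to 0.15, with Dnaja2 the most abundant at 157 and 142 RPKM and Dnaja1, with the lowest log2 ratio, at 27.5 and 28 RPKM. Dnaja4 was at 13.5 and 13.7 RPKM, but 44.1% of its exon bases lie in exons of Wdr61 as well, so its value is uncertain. The 7 class B genes ran from -0.40 for Dnajb5 to 0.46 for Dnajb4, with a median of 0.08. Dnajb5 had only 114 and 180 reads, at 0.428 and 0.597 RPKM, and its log2 ratio depends on the added amount. It was -0.48 with 0 RPKM added and -0.16 with 1 RPKM added. Dnajb6, which holds back aggregation of polyglutamine proteins, had the highest RPKM of the class, 68.8 and 65.0, giving a log2 ratio of 0.08, and 31.0% of its 100-base stretches were also found in other genes. Dnajb12, which sits in the ER membrane with its J domain in the cytosol, was next at 17.2 and 16 RPKM, with a log2 ratio of 0.10.

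Class C holds J proteins of very different places in the cell, and its 22 genes had a median of 0.05, with 13 higher and 9 lower with AS. Dnajc8, a splicing-associated protein, had 172 and 183 RPKM, and Dnajc2, a ribosome-associated partner of HSP70, had 76.9 and 81.9, both with a log2 ratio of -0.09. The lowest was Dnajc9, a histone chaperone, at 35 and 43.0 RPKM, giving a log2 ratio of -0.30 with an interval from -0.36 to -0.24. The highest was Dnajc18, at 4.23 and 3.19 RPKM, giving a log2 ratio of 0.40 with an interval from 0.28 to 0.54. The median of class C turned to -0.01 with TMM normalization, so no direction is read from it.

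**Figure D4:**
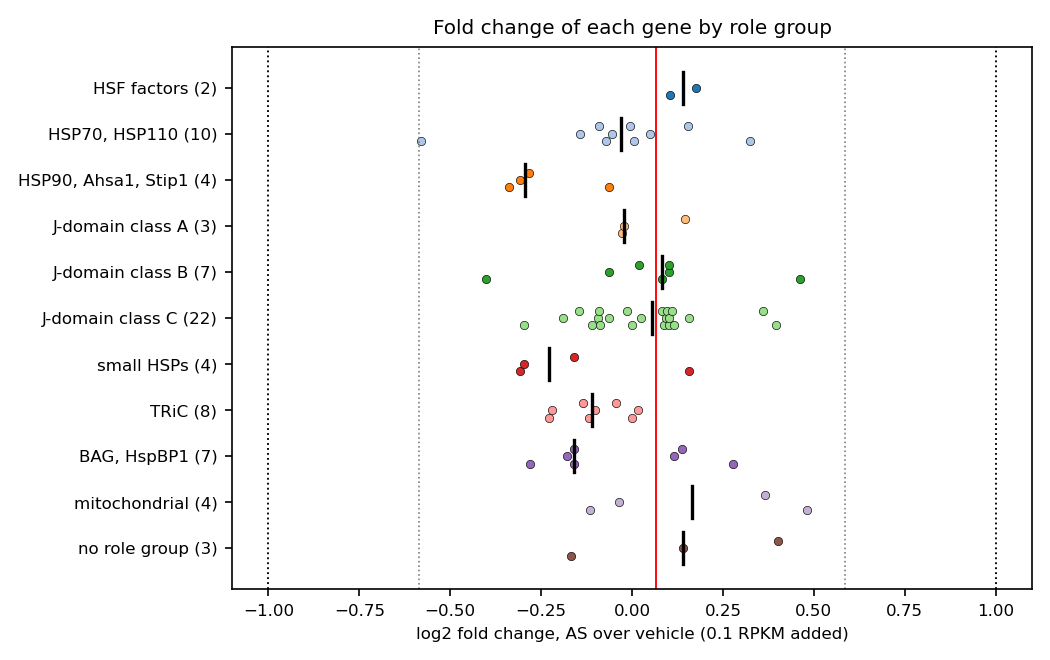
Log2 ratio of AS to vehicle (0.1 RPKM added) of each chaperone gene by role group, 1 point per gene with the number of genes in parentheses and a black bar at the group median; the red line is the median of all genes (0.07), grey dotted lines mark a 1.5-fold difference in either direction and black dotted lines -1 and 1. The HSP90 group lies lowest with a median of -0.30, the mitochondrial group highest with 0.17, and no point passes a dotted line.

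The small heat shock proteins were expressed at low levels. The 4 genes in the table had log2 ratios from -0.31 for Hspb1 to 0.16 for Hspb8, the most abundant of them at 7.09 and 6.35 RPKM. Hspb8 forms a complex with Bag3, and the interval of its reads included 0. Hspb2 had 135 and 171 reads, and 30.2% of its exon bases lie in exons of Cryab as well, so its value is uncertain.

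The exchange factors of the BAG family ran both ways. Bag1, the most abundant at 198 and 222 RPKM, had a log2 ratio of -0.16. Bag6, which guards proteins on their way to membranes, had 24.8 and 27.7 RPKM and the same log2 ratio of -0.16. Bag5, on the other side, had 34.0 and 28.1 RPKM, giving a log2 ratio of 0.28 with an interval from 0.21 to 0.34. Hspbp1 was lowest, at 3.07 and 3.75 RPKM with a log2 ratio of -0.28. The group of 7 had a median of -0.16, with 3 higher and 4 lower.

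The 6 ER chaperone genes that the choice by symbol left out ran from -0.24 to 0.48 on the log2 scale. Hspa5 (BiP), at 214 and 230 RPKM, and Hsp90b1 (GRP94), at 860 and 1013 RPKM, had log2 ratios of -0.10 and -0.24, and Dnajb9, an ER J protein with 4.13 and 2.93 RPKM, had 0.48. Dnajb11, Dnajc3 and Dnajc10 had -0.04, -0.03 and 0.04. The 6 genes had a median of -0.03, beside -0.02 for the 74 chaperone genes and 0.07 for all genes. Of the 6, 0 were past 1.5-fold, near the background of 3.56% of all genes upward and 2.01% downward.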

How the data were processed

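Each condition had 1 library, made with a stranded mRNA kit. How reads of shared or overlapping genes and of each strand were counted is not given in the sources used here. The submitters' processing notes name fastp 0.23.4, STAR 2.5.3a and featureCounts, and a human genome build (GRCh38) although the cells are murine. The deposited table holds the RPKM of each library, the log2 mean CPM over both libraries, and a log2 fold change, p-value and FDR of the authors' own comparison, which were not used. The RPKM unit was not named and was found from the values. RPKM times the summed exon length in GENCODE M21 (GRCm38) gave whole reads, within 0.05 reads, for 94.3% of the 13502 genes with 1 entry there, and for 70 of the 74 chaperone genes. For the other 4, among them Hspa4l, Dnajc7 and Cct6a, the length was taken from the log2 mean CPM deposited by the authors. Coordinates are those of GENCODE M21.

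Fold changes are log2 ratios with 0.1 RPKM added to both values and understate low genes. No p-value was computed. Reads without molecular identifiers are not independent molecules, so intervals cover counting error only. The gene lists, the members and the rule for named genes (both HSF factors; the 2 most abundant, the highest and the lowest gene of each role group; the highest and lowest of each other list; the 6 ER genes) were chosen with earlier results of these data known, and any other gene was named after its values were seen. Alternatives were 0 and 1 RPKM added, scaling by TMM, by the median of ratios or by the upper quartile, a minimum mean of 1 RPKM and a threshold of 1.5-fold. The read recovery and the fold threshold were tested on simulated data. Single values of a few genes are not reported here. Computations ran in Python 3.11.15.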

Additional observations from a re-analysis of the deposited data

How the results depend on the processing

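The counts of chaperone genes past a log2 ratio of 1, which were 0 upward and 0 downward, were the same under all alternatives run, and so was the count of 0 more than 1.5-fold higher. The count more than 1.5-fold lower was 0 and became 1, Hspa2, with 0 RPKM added and with TMM, median-of-ratios or upper-quartile scaling. The scalings lowered every log2 ratio by 0.07, 0.07 and 0.08 in that order. Of 96 medians recomputed, 87 kept their sign and moved by less than 0.1. The other 9 were positive and turned negative: under those 3 scalings in the same order, J-domain class C gave -0.0149, -0.0147 and -0.0273, the other HSP90 co-chaperones -0.0370, -0.0368 and -0.0493, and the other mitochondrial chaperones and proteases -0.0116, -0.0114 and -0.0239. Of the 44 genes named by rule, Cct4 and Dnajc10 changed sign. With 1 RPKM added, low-level genes had smaller log2 ratios, among them Dnajb5 (-0.40 to -0.16), Hspa2 (-0.58 to -0.40) and Hsf1 (0.10 to 0.07). A minimum mean of 1 RPKM left 70 of the 74 genes. The lowest depth of a chaperone gene was a mean of 46.0 reads (Hspa12b), and 2 genes were under a mean of 100 reads. No replicate could be left out. No paired analysis was possible because each condition has 1 library.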

Other observations

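A few genes that the symbols bring in are not chaperones themselves. Hspb11, which encodes a protein of intraflagellar transport, was at 5.87 RPKM after AS against 5.32 after vehicle, giving a log2 ratio of 0.14. Hspbap1, which encodes a protein that binds Hspb1, had 0.780 and 0.566 RPKM counted from 330 and 271 reads, giving a log2 ratio of 0.40. Among the low-level J proteins of class C, Dnajc16 had 1.23 and 0.937 RPKM, giving a log2 ratio of 0.36 with an interval from 0.17 to 0.62. Dnajc5, the cysteine string protein of secretory vesicles, had 6.62 and 6.61 RPKM, giving a log2 ratio of 0.00.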
